A study of Homo sapiens with 15 samples.

Results

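The comparison described here is adipogenic differentiation in culture: 5 arrays of cells labelled mature adipocytes (MA) against 5 arrays of undifferentiated mesenchymal stem cells (MSC), 10 of the 15 arrays of the series. It was read across all 17687 genes that a probe set with a gene symbol measured, out of 24351 probe sets on the array. Both groups are ASC52htert cells (ASC52 below), a single human line of mesenchymal stem cells, which the labels call adipocyte derived and which carries telomerase reverse transcriptase. MA cells were put into adipogenic medium 3 days after seeding, kept there for 14 days and then held for 7 days in RPMI with fetal bovine serum. The undifferentiated cells were not differentiated, and the sources used here do not give their medium or time of harvest. Differentiation, medium and culture time therefore cannot be told apart. The remaining 5 arrays (DED) are MA-type cells whose last 7 days were in medium conditioned by MDA-MB-231 breast carcinoma cells, and here they served only to estimate the spread. The labels do not say whether arrays of a group came from separate cultures, and p-values then reflect the scatter of these arrays alone, possibly a technical one.

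A fat cell forms when a fibroblast-like precursor leaves the cell cycle and the nuclear receptor PPARG, together with factors of the C/EBP family, switches on the genes for storing and releasing triglyceride. Hormones used to start this in culture usually include insulin, a glucocorticoid and an agent that raises cyclic AMP. While the lipid droplet grows, the cell also rounds up, takes down its actin cables and exchanges a fibrous collagen matrix for a basement membrane.

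The arrays within each group were alike, with a lowest correlation between arrays over genes of 0.992 in MSC and 0.992 in MA. MSC array 2 stood apart from the other MSC arrays more often than any other array did: it gave 29 of the 78 groups of 5 values, among 998 checked, in which Dixon's test found a single array far from the rest. Without it 2555 genes rose and 2899 fell. Values are log2 intensities after RMA, in which a step of 1 is a doubling of signal, and ± is the SD over 5 arrays. Background was read from 612 negative control probe sets, with their median at 4.80 and their 95th percentile at 8.31. A mean above 8.31 is called measured below, and where a group's mean lies under it the size of a difference depends on background. Differences are MA minus MSC on the log2 scale with their standard error (SE). A gene passed the test at a limma p under 0.05 after Benjamini-Hochberg adjustment over all 17687 genes, and rose and fell are used only of such genes. The test's spread is shared with the DED arrays, which were less alike (lowest correlation 0.982), whereas ± covers a single group. A gene that did not pass, such as DKK1 below, can thus differ between MSC and MA by more than the SD of either group. Of the lists below without a rising or without a falling member, peroxisome assembly (PEX10), the adipocyte markers (CIDEA) and the leukocyte markers (LYZ) each had 1 member with an unadjusted p under 0.05 in that direction, and the others had 0. The adjusted p of a passing gene is printed where it came nearer to the threshold.

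Of 17687 genes, 5844 (33.0%) passed the test, 2724 (15.4%) rising and 3120 (17.6%) falling. With at least a 2-fold difference, 897 rose and 916 fell. All 5 MA arrays lay outside the range of the 5 MSC arrays for 4776 genes (27.0%), 2196 above it and 2580 below it. RMA puts every array on 1 common distribution, and the split depends on that: with the arrays shifted to the mean of 15 reference genes, which stood 0.21 lower in MA, 3631 genes lay above and 1599 below. The same scaling gave 5196 rises and 1980 falls past the test. The reference genes were not all stable themselves. On the deposited values 2 of the 15 rose and 5 fell, 1 of them at least 2-fold, and their median difference was -0.04. MSC array 2 had the highest mean of these reference genes, and without it their shift was -0.17 and the split 3707 above and 1889 below. Reference gene scaling raises every difference by the shift over all arrays, and list counts that it moves by more than 1.5 times are given in parentheses. Both groups were measured for 5805 genes, of which 3040 passed (52.4%), 1366 rising and 1674 falling. Counts of list members below are to be read against these shares. The share of members that passed was near that of all genes for the nuclear receptors (41%), the Wnt genes (39.6%), the thermogenic genes (39.1%) and the retinoid and steroid genes (43.3%). So it was for the integrins (44%), the muscle markers (30%), the apolipoproteins (33.3%) and the fatty acid binding proteins (33.3%). It was a little higher for the bone and cartilage markers (45.5%), the factors that hold adipogenesis back (45.5%), the genes of fat release (46.7%) and the adipokines (48.5%). Below it were the HOX genes (17.4%), the chemokines (21.4%), the aquaporins (21.4%) and the endothelial (20%), leukocyte (7.14%) and epithelial markers (7.14%). RNA came from whole cultures, so a lower level can be fewer cells that make a transcript or less of it in each cell, which cannot be told apart.

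**Figure D1:**
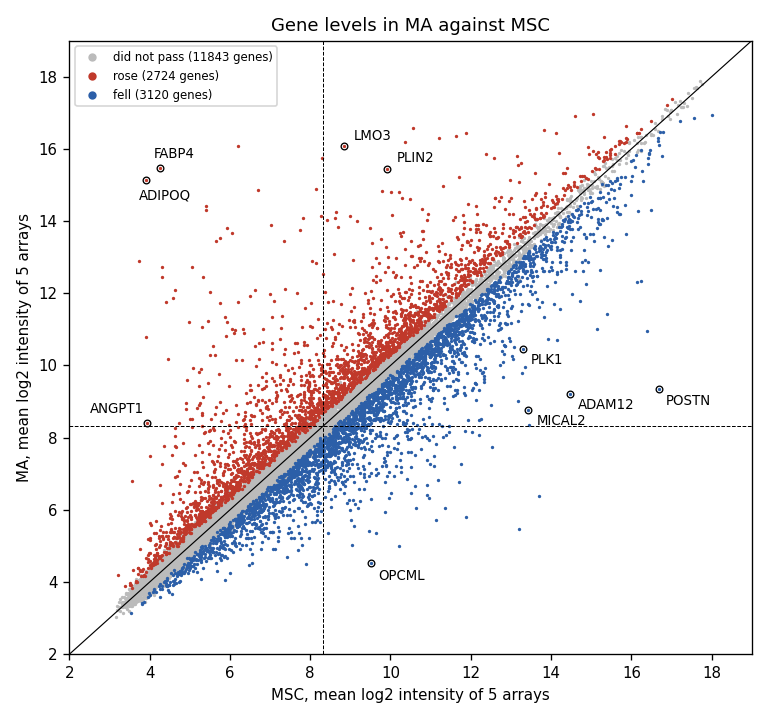
Mean log2 intensity of each of the 17687 genes in MSC (x axis, 5 arrays) and in MA (y axis, 5 arrays), with genes that rose in red, genes that fell in blue and the others in grey. Dashed lines mark the negative controls' 95th percentile of 8.31 and the solid line equal levels. ADIPOQ and FABP4 stand at the upper left, from 3.91 and 4.26 in MSC to 15.15 and 15.48 in MA, and POSTN far below the line on the right, from 16.69 to 9.36.

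Only a few genes crossed the whole range of the negative controls, with 1 group mean under their median of 4.80 and the other above 8.31. In MA 12 genes were in this way present over a background level in MSC. They were the hormone ADIPOQ, the fatty acid carrier FABP4, the complement component C7, the lipogenic regulator THRSP, the glycerol-3-phosphate dehydrogenase GPD1, the droplet coat protein PLIN1, KIAA0040, the protease inhibitor A2M, the transcription factor FOXO1, the phosphodiesterase PDE3B, the vessel growth factor ANGPT1 and ARHGAP6. A2M was at 3.81, 4.63, 5.10, 4.89 and 4.47 on the MSC arrays and at 11.99, 11.89, 11.62, 11.76 and 12.10 on the MA arrays. ANGPT1 was at 4.30, 3.34, 3.34, 4.30 and 4.36 on the MSC arrays and at 8.59, 8.13, 8.40, 8.40 and 8.48 on the MA arrays. In both genes the lowest MA array stood far above the highest MSC array. The single gene the other way was OPCML, a cell adhesion protein, at 9.94, 9.11, 9.39, 9.39 and 9.79 on the MSC arrays and at 3.85, 4.91, 4.49, 4.76 and 4.62 on the MA arrays.

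Genes measured in both groups show the size of change with less influence of background. Some still lie close to the limit, such as GPAM (8.41 in MSC), DGAT2 (8.65 in MSC) and MICAL2 (8.76 in MA), and their folds may still depend on it. LMO3, a LIM-only cofactor that promotes adipogenesis, was at 8.95, 9.06, 8.72, 8.39 and 9.08 on the MSC arrays and at 16.00, 15.91, 16.04, 16.34 and 16.04 on the MA arrays. It rose 150-fold, by 7.23 (SE 0.27), more than any other gene measured in both groups. Next came the alcohol dehydrogenase ADH1B (6.03, SE 0.15), the droplet-associated methyltransferase TMT1A (5.84, SE 0.31), the acyltransferases GPAM (5.63, SE 0.19) and DGAT2 (5.59, SE 0.22) and the droplet protein PLIN2 (5.53, SE 0.14). The secreted factor NDNF (5.45, SE 0.16), the adhesion molecules NRCAM (5.15, SE 0.18) and SVEP1 (5.09, SE 0.19), the protease inhibitor TIMP4 (5.14, SE 0.16), the peptide hormone ADM (5.04, SE 0.14) and the nucleotide hydrolase SAMHD1 (4.84, SE 0.18) followed.

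On the falling side POSTN, TGFBI, ADAM12 and TNFAIP6 led among genes measured in both groups. The actin-oxidising enzyme MICAL2 was at 13.30, 13.69, 13.27, 13.42 and 13.49 on the MSC arrays and at 8.35, 8.93, 9.27, 8.29 and 8.95 on the MA arrays. It fell 25.6-fold (-4.68, SE 0.22), with no overlap. Other falls of this size were those of SEL1L3 (-4.16, SE 0.17), NREP (-4.14, SE 0.16), the deubiquitinase UCHL1 (-3.95, SE 0.37), the proteoglycan BGN (-3.88, SE 0.16), the heparan sulfatase SULF1 (-3.84, SE 0.12), the clock repressor BHLHE40 (-3.73, SE 0.13), the activin subunit INHBA (-3.61, SE 0.28) and the LIM protein CSRP2 (-3.48, SE 0.12). The list also held the histone gene H2BC13 (-3.44, SE 0.17), whose probes may read its near-identical copies.

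The label mature adipocytes was checked on 21 measured markers, of which 17 rose and 0 fell, with a median difference of 4.03. The mean over the markers lay between 5.78 and 5.90 in the MSC arrays and between 10.30 and 10.43 in the MA arrays. Markers of other cell types were mostly at background in both groups. Of 14 leukocyte markers 1 rose (CD68, 0.82, SE 0.16) and 0 fell (2 up and 0 down with reference gene scaling, 2 up in the fit of the 10 MA and MSC arrays), and PTPRC was 5.62 ± 0.40 in MSC and 5.51 ± 0.32 in MA (adjusted p = 0.71). Of 15 endothelial markers 1 rose and 2 fell (4 up and 2 down with reference gene scaling), ERG (-0.96, SE 0.19) and the angiopoietin receptor TEK (-3.98, SE 0.19), while PECAM1 was 4.57 ± 0.21 in MSC and 4.56 ± 0.12 in MA (adjusted p = 0.96). Of 14 epithelial markers 0 rose and 1 fell (3 up and 0 down with reference gene scaling). The one that fell was ELF3 (-0.48, SE 0.13, adjusted p = 0.0061), a call lost with reference gene scaling, and EPCAM was 4.24 ± 0.37 in MSC and 4.21 ± 0.11 in MA (adjusted p = 0.92). Surface markers of stem cells split. NT5E (CD73) was 13.92 ± 0.16 in MSC and 13.83 ± 0.16 in MA (adjusted p = 0.64) and CD44 14.18 ± 0.16 in MSC and 13.91 ± 0.03 in MA (adjusted p = 0.15). THY1 (CD90) fell (-1.55, SE 0.14), as did ENG (-1.18, SE 0.11), known as CD105, ALCAM (-1.42, SE 0.13) and PI16 (-4.02, SE 0.18), a marker of early progenitors, whereas PDGFRA (1.13, SE 0.14) and MME (1.93, SE 0.13) rose. In all 7 of 24 such markers rose and 9 fell, with a median of -0.09, which is 0.13 when arrays are scaled to the reference genes.

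The transcription factors of fat cell formation rose for the most part, 16 of 28 measured activators, while 5 fell (median 0.86). PPARG was at 7.11, 7.26, 7.03, 7.15 and 6.76 on the MSC arrays and at 10.41, 10.55, 10.62, 10.74 and 10.75 on the MA arrays. All MA arrays lay above all MSC arrays, and the mean passed the background limit only in MA. CEBPA, its partner that maintains the mature state, rose by 0.67 (SE 0.13) and its MA mean of 5.97 stayed under 8.31. Of the early factors, which are induced in the first days, CEBPB was 6.32 ± 0.17 in MSC and 6.48 ± 0.33 in MA (adjusted p = 0.44) and CEBPD 4.37 ± 0.24 in MSC and 4.65 ± 0.08 in MA (adjusted p = 0.081). Among activators measured in both groups EBF1 (2.61, SE 0.15), EBF2 (1.60, SE 0.12), KLF9 (2.29, SE 0.18), SREBF1 (1.89, SE 0.13), NFIA (1.53, SE 0.12), STAT5A (1.17, SE 0.13) and STAT5B (1.11, SE 0.11) rose. The glucocorticoid receptor NR3C1 (-0.79, SE 0.13), NFIB (-0.87, SE 0.15), KLF4 (-1.05, SE 0.17) and XBP1 (-1.20, SE 0.15) fell.

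Factors known to hold adipogenesis back gave a mixed picture, with 4 of 33 rising and 11 falling (7 up and 8 down with reference gene scaling). Their median of -0.11 turns to 0.10 with reference gene scaling. The ID proteins, which block basic helix-loop-helix factors, all fell: ID3 (-3.55, SE 0.22), ID2 (-1.57, SE 0.16) and ID1 (-0.85, SE 0.26, adjusted p = 0.015). ID3 was at 10.44, 10.85, 10.00, 10.59 and 10.19 on the MSC arrays and at 6.18, 6.94, 6.94, 7.05 and 7.19 on the MA arrays. The groups did not overlap. RUNX2, the factor of bone formation, fell (-2.50, SE 0.18), and so did RUNX1 (-1.38, SE 0.12) and the cartilage factor SOX9 (-0.91, SE 0.12). NR2F1 (3.27, SE 0.17), the TGF-beta effector SMAD3 (1.90, SE 0.16) and FOXO3 (1.82, SE 0.11) rose. Of the best known preadipocyte genes, DLK1 was 5.70 ± 0.18 in MSC and 5.68 ± 0.15 in MA (adjusted p = 0.93), GATA2 5.38 ± 0.33 in MSC and 5.02 ± 0.50 in MA (adjusted p = 0.18) and GATA3 6.56 ± 0.19 in MSC and 6.56 ± 0.32 in MA (adjusted p = 0.99), all under the background limit in both groups. The Hippo pathway effector YAP1 was 9.41 ± 0.09 in MSC and 9.59 ± 0.12 in MA (adjusted p = 0.34). Of 39 nuclear receptors 9 rose and 7 fell (15 up and 7 down with reference gene scaling). The oxysterol receptor NR1H3 rose (1.19, SE 0.12), as did PPARA (0.85, SE 0.16) and the thyroid hormone receptor THRA (0.59, SE 0.10). The vitamin D receptor VDR fell (-1.78, SE 0.13), with PPARD (-0.64, SE 0.15, adjusted p = 0.002).

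**Figure D2:**
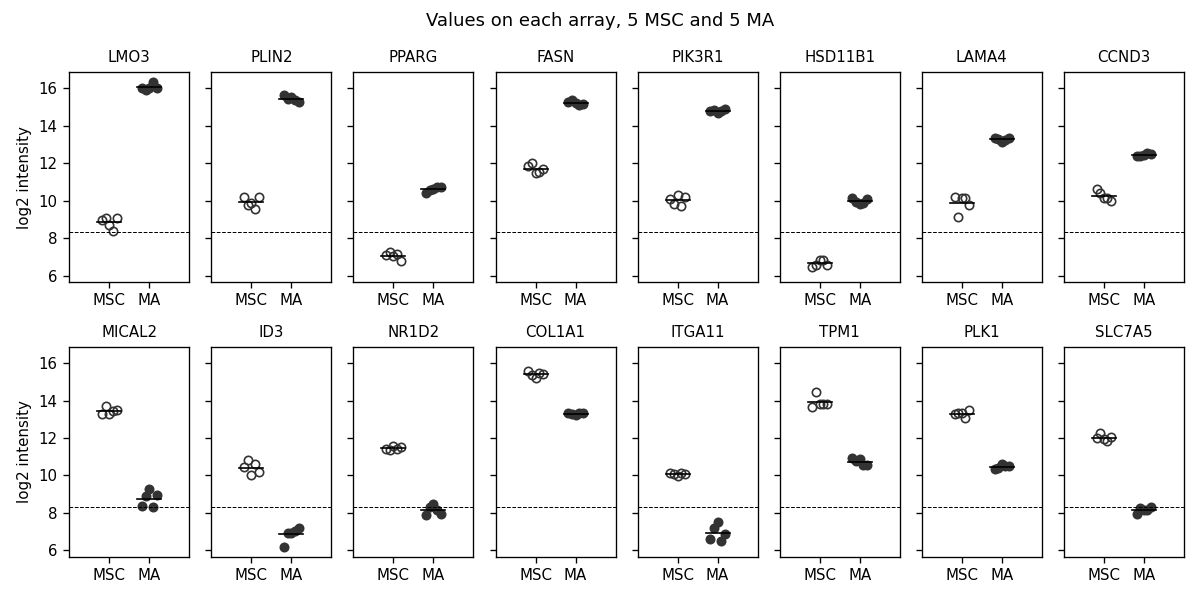
Log2 intensity of 16 genes on each of the 5 MSC arrays (open circles) and the 5 MA arrays (filled circles), 1 panel per gene, with a bar at each group's mean and a dashed line at the negative controls' 95th percentile of 8.31. The groups separate in every panel, upwards for LMO3 and PLIN2 among others and downwards for PLK1, COL1A1 and SLC7A5 among others.

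Genes of lipid storage moved mostly upward. Of 21 droplet proteins 15 rose and 1 fell (median 0.80). CIDEC, which fuses small droplets into large ones, rose by 9.89 (SE 0.30) from background and the lipolysis inhibitor G0S2 by 1.96 (SE 0.13). PLIN2, the coat protein of droplets in most cells, was at 10.18, 9.77, 9.87, 9.58 and 10.17 on the MSC arrays and at 15.63, 15.43, 15.52, 15.37 and 15.25 on the MA arrays. It rose 46.1-fold, with no overlap. PLIN3, the cytosolic member of that family, was the droplet protein that fell (-0.43, SE 0.14, adjusted p = 0.025), and that call is lost with reference gene scaling and without MA array 5 or MSC array 2, 3 or 5. Without MSC array 2 CIDEA fell in its place. Of the 9 fatty acid binding proteins 3 rose (5 up and 0 down with reference gene scaling), FABP4 (11.22, SE 0.21), FABP3 (2.87, SE 0.27) and FABP5 (1.76, SE 0.14), and of these FABP5 was measured in both groups.

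Of the genes of fatty acid uptake and activation the acyl-CoA synthetase ACSL1 rose by 5.88 (SE 0.17), the scavenger receptor CD36 by 5.47 (SE 0.22), the transporter SLC27A3 by 3.46 (SE 0.16), the lipase LPL by 2.56 (SE 0.14) and the lysosomal lipase LIPA by 2.05 (SE 0.17). CAV1, the caveolar coat protein, was 13.62 ± 0.18 in MSC and 14.03 ± 0.09 in MA (adjusted p = 0.077) and CAV2 rose (0.69, SE 0.18, adjusted p = 0.0045). In this list 9 of 21 rose and 3 fell (12 up and 1 down with reference gene scaling).

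Fatty acid synthesis had 18 of 24 members rising and 2 falling (median 1.46). FASN, the fatty acid synthase, rose 11.6-fold, from a mean of 11.70 to 15.23. Supply of acetyl-CoA and reducing power rose with it: the citrate carrier SLC25A1 by 2.09 (SE 0.18), the citrate lyase ACLY by 1.70 (SE 0.17), malic enzyme ME1 by 2.31 (SE 0.16) and, from under the background limit, the acetyl-CoA synthetase ACSS2 by 5.41 (SE 0.17). The 2 acetyl-CoA carboxylases differed in size, ACACB at 7.63 (SE 0.22) and ACACA at 0.82 (SE 0.11). Desaturation and elongation rose through SCD (1.94, SE 0.12), ELOVL6 (3.74, SE 0.21) and ELOVL5 (1.86, SE 0.11). ELOVL4, an elongase of very long chains, fell by 1.87 (SE 0.16).

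Glycerolipid assembly had 14 of 26 members rising and 2 falling (16 up and 1 down with reference gene scaling, 1 down without DED array 3 or 5 or MA array 2, 3, 4 or 5 or MSC array 1, 3 or 5, median 0.73). Members of an enzyme family differed. DGAT2, the last step to triglyceride, rose by 5.59 (SE 0.22). AGPAT2 rose by 2.94 (SE 0.17) and AGPAT1 by 0.65 (SE 0.13), while AGPAT5 fell by 1.20 (SE 0.24). GPAM, the mitochondrial first step, was at 8.18, 8.85, 8.40, 7.99 and 8.61 on the MSC arrays and at 13.93, 14.01, 14.00, 14.21 and 14.02 on the MA arrays, a 49.5-fold rise. The phosphatidate phosphatase LPIN2 was 9.83 ± 0.12 in MSC and 9.80 ± 0.27 in MA (adjusted p = 0.89). The glycerol channel AQP7 (4.82, SE 0.25) and PCK1, which makes glycerol 3-phosphate in fat cells (2.25, SE 0.16), also rose.

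Of 30 genes of fat release 13 rose and 1 fell (20 up and 1 down with reference gene scaling, median 0.31). The lipases PNPLA2 (3.61, SE 0.21), LIPE (4.03, SE 0.26) and MGLL (1.16, SE 0.15) rose. So did the natriuretic peptide receptors NPR1 (from 6.14 to 10.14) and NPR3 (2.54, SE 0.13), the adenosine receptor ADORA1 (1.52, SE 0.16), the protein kinase A subunit PRKAR2B (5.79, SE 0.29) and PDE3B (5.73, SE 0.19), through which insulin lowers cyclic AMP. ADORA1 was under the background limit in both groups. The beta-adrenergic receptors were near background, with ADRB1 5.46 ± 0.26 in MSC and 5.44 ± 0.40 in MA (adjusted p = 0.95) and ADRB3 3.69 ± 0.10 in MSC and 3.93 ± 0.22 in MA (adjusted p = 0.14). The catalytic subunits of protein kinase A moved apart, PRKACA up (0.61, SE 0.13) and PRKACB down (-0.83, SE 0.12).

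Of 30 fatty acid oxidation genes 23 rose and 2 fell (25 up and 0 down with reference gene scaling, 1 down without MA array 2 or 4 or MSC array 1, 2 or 4, median 0.89), of 26 genes of the TCA cycle and pyruvate entry 16 and 0 (median 0.48), and of 26 respiratory chain subunits 13 and 1 (median 0.29). Of these subunits 25 were measured in both groups. The share of the subunits that passed, 53.8%, was near the 52.4% of all genes so measured. HADH (2.36, SE 0.14), ACAA2 (1.86, SE 0.12) and ACADVL (1.72, SE 0.13) led the oxidation genes measured in both groups. Of the carnitine transferases at the mitochondrial gate CPT1A was 6.28 ± 0.13 in MSC and 6.07 ± 0.32 in MA (adjusted p = 0.35) and CPT1B 6.67 ± 0.32 in MSC and 6.89 ± 0.21 in MA (adjusted p = 0.3), and CPT2 rose (0.57, SE 0.14, adjusted p = 0.0023). In pyruvate entry DLAT, a core subunit of pyruvate dehydrogenase, was at 9.11, 9.12, 8.83, 9.10 and 9.18 on the MSC arrays and at 11.12, 11.20, 11.38, 11.16 and 11.33 on the MA arrays, and both carrier subunits MPC1 (1.04, SE 0.12) and MPC2 (1.66, SE 0.13) rose. PDK4, the kinase that switches the same complex off, rose by 4.83 (SE 0.28). Peroxisomal genes rose in 9 of 18 cases with 0 falling, led by the fatty acid transporter ABCD2 (5.77, SE 0.22), the import receptor PEX19 (2.64, SE 0.14) and catalase, CAT (2.64, SE 0.12).

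Breakdown of branched-chain amino acids had 14 of 25 members rising and 3 falling. ALDH6A1 (2.32, SE 0.14), IVD (1.99, SE 0.13) and PCCA (1.38, SE 0.15) rose, late steps that lead to acyl-CoA units. The entry enzymes differed: the cytosolic transaminase BCAT1 fell by 1.53 (SE 0.14), the mitochondrial form BCAT2 was 7.77 ± 0.13 in MSC and 7.71 ± 0.10 in MA (adjusted p = 0.8), and the dehydrogenase subunits DBT (1.11, SE 0.13) and BCKDHB (-0.85, SE 0.12) moved in opposite directions.

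Glucose metabolism moved both ways and by isoform, with 12 of 28 rising and 5 falling (median 0.06). The phosphofructokinase PFKL rose (0.48, SE 0.11, adjusted p = 0.0022), PFKP fell (-1.30, SE 0.24) and PFKM was 8.65 ± 0.14 in MSC and 8.52 ± 0.29 in MA (adjusted p = 0.59). Hexokinase HK2 rose (1.37, SE 0.17) and HK1 fell (-0.92, SE 0.20, adjusted p = 0.0012), both under the background limit in a group. PKM, which makes pyruvate, fell by 1.03 (SE 0.18), and ENO1 fell (-0.67, SE 0.16, adjusted p = 0.0027). The pentose phosphate enzymes TKT (0.91, SE 0.18), TALDO1 (1.10, SE 0.10) and PGD (0.72, SE 0.15) rose. GAPDH was 17.52 ± 0.07 in MSC and 17.41 ± 0.04 in MA (adjusted p = 0.46) and LDHA 15.07 ± 0.18 in MSC and 15.11 ± 0.10 in MA (adjusted p = 0.82). The insulin-regulated glucose transporter SLC2A4 rose by 1.31 (SE 0.18) to 8.44, just above the background limit, the fructose transporter SLC2A5 rose by 2.42 (SE 0.24), and the ubiquitous SLC2A1 was 7.91 ± 0.58 in MSC and 8.07 ± 0.15 in MA (adjusted p = 0.73).

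Insulin signalling had 12 of 29 members rising and 8 falling. INSR, the insulin receptor, rose by 1.74 (SE 0.18) from 6.35 to 8.09, and its relative IGF1R fell (-0.72, SE 0.13). The docking proteins IRS1 (1.64, SE 0.15) and IRS2 (1.47, SE 0.16) rose. PIK3R1, the regulatory subunit of PI3-kinase, was at 10.11, 9.81, 10.29, 9.72 and 10.18 on the MSC arrays and at 14.80, 14.85, 14.67, 14.81 and 14.90 on the MA arrays, a 27.6-fold rise without overlap. Its catalytic partners split, PIK3CB up (0.85, SE 0.15) and PIK3CD down (-1.10, SE 0.14). The AKT inhibitor TRIB3 (-1.66, SE 0.23), under the background limit in both groups, and the adaptor GRB10 (-0.87, SE 0.17) fell. FOXO1 rose by 6.90 (SE 0.25) and FOXO3 by 1.82 (SE 0.11). IGF1, a growth factor of the same family, was at 7.87, 8.35, 7.44, 7.84 and 7.77 on the MSC arrays and at 10.46, 10.86, 10.42, 10.67 and 10.81 on the MA arrays. All MA arrays of IGF1 were the higher ones. Its binding proteins IGFBP2 (4.69, SE 0.21), IGFBP5 (3.22, SE 0.22) and IGFBP4 (0.71, SE 0.10) rose and IGFBP6 fell (-1.30, SE 0.11), while IGFBP3 was 15.63 ± 0.23 in MSC and 15.69 ± 0.09 in MA (adjusted p = 0.89). The stanniocalcins moved apart, STC1 up (3.87, SE 0.27) and STC2 down (-2.39, SE 0.35), and PAPPA (-0.92, SE 0.19) and PAPPA2 (-2.98, SE 0.28), the proteases that stanniocalcins inhibit, fell.

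Secreted products included 10 of 33 adipokines that rose and 6 that fell. After ADIPOQ the retinol carrier RBP4 (7.88, SE 0.24), the protease CFD, also called adipsin (6.28, SE 0.26), and ADM (5.04, SE 0.14) rose most, and LEP reached 6.73 after a rise of 1.97 (SE 0.27). RARRES2 (chemerin, -1.57, SE 0.27) and METRNL (-1.76, SE 0.19), both known as fat tissue products, fell. The receptors ADIPOR1 (0.47, SE 0.12, adjusted p = 0.0029) and ADIPOR2 (0.79, SE 0.12) rose by small amounts and KLB, the co-receptor of FGF21, by 2.70 (SE 0.20). Among 24 apolipoproteins and transfer proteins 6 rose and 2 fell (9 up and 1 down with reference gene scaling, 1 down without MSC array 2), and APOE, the lipid carrier, was at 8.05, 8.52, 8.70, 8.49 and 8.42 on the MSC arrays and at 10.23, 10.55, 13.07, 13.38 and 11.58 on the MA arrays. The groups of APOE values did not overlap, but the MA arrays differed widely, with arrays 3 and 4 highest and arrays 1 and 2 lowest. APOC1 (8.15, SE 0.33) and APOD (7.45, SE 0.49) rose from background. The sterol exporter ABCA1, which was measured in both groups, rose by less (1.58, SE 0.13). APOL1 fell (-1.02, SE 0.18) under the background limit in both groups, and its probes may also read other APOL genes.

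Complement genes, whose products are mostly secreted, moved both ways, 9 of 27 rising and 5 falling. C3, the central component, was at 12.21, 9.89, 11.62, 12.28 and 12.12 on the MSC arrays and at 16.23, 16.34, 16.44, 16.35 and 16.39 on the MA arrays, a 26.5-fold rise. MSC array 2 was the lowest by a wide margin, and the groups did not overlap. The C1 inhibitor SERPING1 (3.55, SE 0.29), C1R (1.01, SE 0.18), MASP1 (1.95, SE 0.27) and the membrane attack components C6 (2.70, SE 0.25) and C7 (9.15, SE 0.36) rose. CFB, which forms the alternative convertase together with C3, fell by 1.39 (SE 0.25), and so did CFI (-3.08, SE 0.24) and the surface inhibitors CD55 (-1.61, SE 0.13) and CD59 (-0.68, SE 0.14).

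Genes known to answer glucocorticoids rose in 18 of 26 cases and fell in 3 (median 1.93). HSD11B1, the enzyme that regenerates active cortisol, was at 6.44, 6.57, 6.84, 6.85 and 6.57 on the MSC arrays and at 10.16, 9.95, 9.80, 9.88 and 10.09 on the MA arrays. All MA arrays were above all MSC arrays. ZBTB16 (7.77, SE 0.12), SAA1 (7.68, SE 0.21), the peptidase CPM (6.87, SE 0.14), the amine oxidase MAOA (6.53, SE 0.13), GLUL, glutamine synthetase (4.55, SE 0.14), ERRFI1 (4.36, SE 0.13) and TSC22D3 (3.84, SE 0.15) rose. SGK1, a kinase that the same hormones usually induce, fell (-2.66, SE 0.21). The letters AGAACA of the receptor's recognition element, searched on both strands from 250 bases before to 50 after the start, were in 1 of 16 RefSeq promoters of the genes that rose (6.25%), against 10.9% of 14250 promoters of tested genes. Of 30 genes of retinoid and steroid handling 10 rose and 3 fell. RDH5 (5.97, SE 0.20), AOX1 (4.14, SE 0.15) and STS (1.73, SE 0.16) rose. AKR1C1 (3.36, SE 0.14), AKR1C2 (3.11, SE 0.17) and AKR1C3 (2.94, SE 0.17) rose too, but they are close copies, so their separate values are uncertain. CRABP2 (-1.89, SE 0.37), RDH10 (-1.55, SE 0.21) and CYP1B1 (-2.31, SE 0.13) fell. Metallothioneins, metal-binding proteins that the same hormones induce, rose in 8 of 10 cases with 0 falling, with the same limit of near-identical copies.

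Clock genes fell, 12 of 20 with 3 rising (median -0.83). The REV-ERB receptors, which repress BMAL1, both fell, NR1D1 (-2.39, SE 0.16) and NR1D2 (-3.29, SE 0.16). NR1D2 was at 11.43, 11.35, 11.59, 11.42 and 11.50 on the MSC arrays and at 7.91, 8.29, 8.48, 8.18 and 7.96 on the MA arrays, so all MA arrays were lower and the MA mean was under the background limit. BMAL1 itself rose (1.46, SE 0.12), with the repressor NFIL3 (3.13, SE 0.10). CIART (-4.05, SE 0.28), BHLHE40 (-3.73, SE 0.13), BHLHE41 (-1.24, SE 0.18), PER3 (-2.79, SE 0.22), PER2 (-2.02, SE 0.15), TEF (-1.13, SE 0.15) and CRY1 (-0.79, SE 0.24, adjusted p = 0.014) fell. DBP was 8.07 ± 0.16 in MSC and 8.40 ± 0.21 in MA (adjusted p = 0.063). These genes cycle over the day, and the sources used here do not give the hour of harvest, so phase and differentiation cannot be told apart.

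Matrix genes moved by class. Of 30 genes of fibrillar collagens and their processing 17 fell and 5 rose (median -0.66), and of 31 basement membrane genes 5 fell and 12 rose (16 up and 3 down with reference gene scaling, median 0.25). COL1A1, the main fibre chain, was at 15.60, 15.37, 15.19, 15.49 and 15.41 on the MSC arrays and at 13.35, 13.29, 13.25, 13.31 and 13.34 on the MA arrays, a 4.3-fold fall. COL1A2 (-1.06, SE 0.10) and COL5A1 (-1.51, SE 0.10) fell with it, and COL5A2 was 10.86 ± 0.16 in MSC and 10.65 ± 0.20 in MA (adjusted p = 0.33). The folding and cross-linking enzymes fell on a broad front: the chaperone SERPINH1 (-1.73, SE 0.13), the lysyl oxidases LOX (-1.78, SE 0.18), LOXL1 (-0.65, SE 0.13) and LOXL3 (-3.10, SE 0.22), the lysyl hydroxylases PLOD2 (-1.70, SE 0.13) and PLOD3 (-1.07, SE 0.14) and the prolyl hydroxylases P3H1 (-1.32, SE 0.10), P3H2 (-3.01, SE 0.18), P3H3 (-2.11, SE 0.12) and P4HA2 (-1.44, SE 0.15). COL11A1, a minor fibre chain typical of cartilage, rose by 1.71 (SE 0.10), with the propeptidase ADAMTS2 (1.49, SE 0.12).

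In the basement membrane LAMA4, the laminin chain known from fat and vessels, was at 10.21, 9.15, 10.15, 10.14 and 9.77 on the MSC arrays and at 13.36, 13.29, 13.13, 13.24 and 13.37 on the MA arrays. It rose 10.5-fold and the groups did not overlap. Its partners LAMB1 (2.36, SE 0.14) and LAMC1 (0.98, SE 0.12), the linkers NID1 (3.49, SE 0.17) and NID2 (1.62, SE 0.13), LAMA2 (2.89, SE 0.13) and, from under the background limit, COL4A1 (1.81, SE 0.14), COL4A2 (1.02, SE 0.15) and COL15A1 (2.66, SE 0.21) rose. LAMA1 (-1.19, SE 0.24), the heparan sulfate proteoglycan AGRN (-2.36, SE 0.21) and the collagen IV cross-linker PXDN (-0.67, SE 0.10) fell, and the collagen VI chains did not pass, with COL6A3 16.23 ± 0.08 in MSC and 15.94 ± 0.15 in MA (adjusted p = 0.051).

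**Figure D3:**
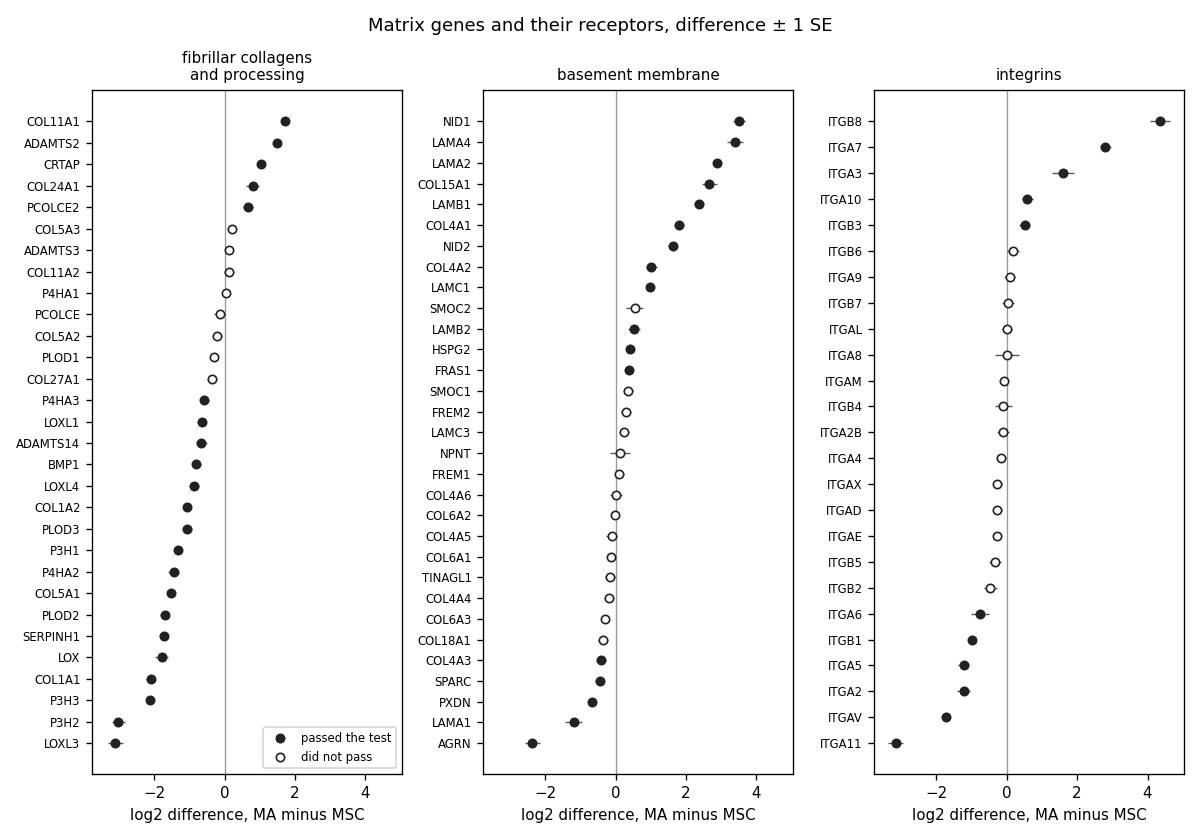
Log2 difference MA minus MSC (x axis) of every measured gene of the lists for fibrillar collagens and their processing, basement membrane and integrins, with bars for 1 standard error on either side. Filled circles passed the test, open circles did not, and the grey line marks 0; LOXL3 (-3.10) ends the first panel on the left and NID1 (3.49) the second on the right.

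Proteoglycans and matrix glycoproteins moved both ways, 14 of 40 up and 13 down, and their median of -0.04 becomes 0.17 with reference gene scaling. Small leucine-rich proteoglycans split between OMD (2.93, SE 0.32), OGN (1.75, SE 0.25) and ECM2 (2.69, SE 0.22), which rose, and BGN (-3.88, SE 0.16), LUM (-2.90, SE 0.25) and ASPN (-2.58, SE 0.24), which fell. The cartilage protein COMP rose by 2.83 (SE 0.13), as did MGP, the inhibitor of calcification, by 6.02 (SE 0.38). VCAN (-2.23, SE 0.14), THBS2 (-1.50, SE 0.16) and ELN (-1.11, SE 0.15) fell. Proteases and inhibitors likewise split, 12 of 40 up and 14 down. ADAMTS5 (4.73, SE 0.30), ADAMTS15 (3.22, SE 0.23), RECK (2.15, SE 0.26) and TIMP4 (5.14, SE 0.16) rose. TIMP1 (-1.40, SE 0.11), TIMP3 (-2.18, SE 0.22), MMP16 (-4.05, SE 0.19), MMP1 (-2.70, SE 0.19), ADAM19 (-2.97, SE 0.22) and the plasminogen activation genes PLAU (-1.49, SE 0.18), PLAUR (-1.82, SE 0.13) and SERPINE2 (-2.73, SE 0.18) fell.

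Integrins, the receptors for matrix, moved both ways. Of 25 measured, 5 rose and 6 fell, with a median of -0.10 that becomes 0.12 with reference gene scaling. ITGA11, a receptor for fibrillar collagen, was at 10.14, 10.09, 9.97, 10.13 and 10.09 on the MSC arrays and at 6.62, 7.22, 7.49, 6.48 and 6.85 on the MA arrays. All MA arrays lay lower, and the MA mean was under the background limit. The fibronectin receptor chains ITGA5 (-1.22, SE 0.16) and ITGAV (-1.73, SE 0.12), their partner ITGB1 (-0.97, SE 0.09) and the collagen receptor chain ITGA2 (-1.22, SE 0.18) fell. The laminin receptor chains ITGA7 (2.80, SE 0.16) and ITGA3 (1.59, SE 0.31) rose, whereas ITGA6, also a laminin receptor, fell (-0.76, SE 0.25, adjusted p = 0.021), a call lost with reference gene scaling and without MA array 1 or 3 or MSC array 2 or 5. ITGB8, which activates latent TGF-beta, rose by 4.35 (SE 0.28), and ITGB5 was 9.34 ± 0.21 in MSC and 9.02 ± 0.21 in MA (adjusted p = 0.18). None of the integrins that rose was measured in both groups, so the sizes of their rises depend on background, and 3 of the 6 that fell were so measured.

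The contractile cytoskeleton fell in part, 17 of 38 genes of stress fibres and focal adhesions with 5 rising (8 up and 14 down with reference gene scaling, 3 up without MA array 2, 4 or 5 or MSC array 3, median -0.29, -0.08 with reference gene scaling, in which ACTB is itself 1 of the references). TPM1, tropomyosin 1, was at 13.68, 14.48, 13.83, 13.83 and 13.81 on the MSC arrays and at 10.93, 10.75, 10.87, 10.55 and 10.55 on the MA arrays, a 9.16-fold fall. CNN1 (-2.58, SE 0.29), FHL2 (-1.92, SE 0.15), LIMS1 (-1.46, SE 0.11), TAGLN (-1.39, SE 0.29), MYH9 (-1.33, SE 0.17), ACTN1 (-0.94, SE 0.21, adjusted p = 0.0012) and ACTB (-0.94, SE 0.21, adjusted p = 0.0012) fell. ACTA2, smooth muscle actin, was 12.15 ± 0.28 in MSC and 12.04 ± 0.06 in MA (adjusted p = 0.87), and ACTG1 16.48 ± 0.11 in MSC and 16.39 ± 0.07 in MA (adjusted p = 0.55). VCL (0.51, SE 0.12, adjusted p = 0.0024) and PALLD (0.51, SE 0.11, adjusted p = 0.0012) rose. Of 24 intermediate filament, tubulin and septin genes 11 fell and 3 rose (7 up and 10 down with reference gene scaling), but their median of -0.16 becomes 0.05 with reference gene scaling. The tubulins TUBB2A (-1.54, SE 0.15), TUBA1A (-1.33, SE 0.14), TUBB (-1.18, SE 0.12) and TUBB6 (-1.10, SE 0.24) fell, though near-identical copies make single tubulin values uncertain, and VIM was 14.81 ± 0.08 in MSC and 14.93 ± 0.13 in MA (adjusted p = 0.42). Targets of YAP and TEAD did not move together: 7 of 27 rose and 7 fell (12 up and 7 down with reference gene scaling). CCN1 (0.94, SE 0.16) and ANKRD1 (0.99, SE 0.25, adjusted p = 0.0036) rose, and so did CCN2 (0.49, SE 0.16, adjusted p = 0.027), a call lost without MA array 4 or MSC array 1, 3 or 4. In contrast AXL (-2.35, SE 0.13), AJUBA (-1.56, SE 0.35, adjusted p = 0.0014) and PTPN14 (-0.96, SE 0.15) fell.

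Of 48 genes of TGF-beta, activin and BMP signalling 13 rose and 16 fell (20 up and 14 down with reference gene scaling). The ligands TGFB1 (-1.12, SE 0.13), TGFB3 (-2.62, SE 0.17) and INHBA (-3.61, SE 0.28) and the latency protein LTBP2 (-3.43, SE 0.16) fell, and BMP4 (1.37, SE 0.19) and GDF11 (1.89, SE 0.13) rose. The BMP antagonists moved in opposite directions. GREM1 was at 11.70, 12.22, 11.44, 11.63 and 11.57 on the MSC arrays and at 6.68, 6.94, 6.32, 6.90 and 6.97 on the MA arrays. The GREM1 groups did not overlap. CHRDL1 rose from 8.14 to 14.89. The receptors TGFBR2 (1.22, SE 0.11), TGFBR3 (3.12, SE 0.27) and ACVRL1 (1.70, SE 0.19) rose, and BMPR1B (-2.70, SE 0.14), BMPR2 (-0.91, SE 0.10) and ENG (-1.18, SE 0.11) fell. Of the intracellular effectors SMAD3 rose (1.90, SE 0.16) and SMAD1 fell (-2.24, SE 0.14), and SMAD6 rose (1.16, SE 0.17) while SMAD7 fell (-1.06, SE 0.16). SMAD2 was 9.90 ± 0.07 in MSC and 10.00 ± 0.19 in MA (adjusted p = 0.54) and SMAD4 12.95 ± 0.03 in MSC and 12.93 ± 0.12 in MA (adjusted p = 0.94).

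Wnt genes moved both ways, 10 of 53 up and 11 down (16 up and 9 down with reference gene scaling), and the median of -0.05 becomes 0.17 with reference gene scaling. Among antagonists SFRP1 (2.44, SE 0.26) and DKK2 (1.98, SE 0.19) rose, and SFRP4 (-2.79, SE 0.26) and DKK3 (-3.13, SE 0.20) fell, while DKK1 was 11.40 ± 0.23 in MSC and 11.93 ± 0.12 in MA (adjusted p = 0.36). Among receptors FZD4 (2.11, SE 0.14) and ROR1 (2.51, SE 0.11) rose, and FZD2 (-0.78, SE 0.14), FZD6 (-0.72, SE 0.14), FZD7 (-0.96, SE 0.21, adjusted p = 0.0011) and ROR2 (-0.82, SE 0.16) fell. AXIN2, a common readout of the beta-catenin branch, rose by 1.46 (SE 0.18) but was under the background limit in both groups. Of the ligands WNT5A was 10.43 ± 0.12 in MSC and 10.15 ± 0.10 in MA (adjusted p = 0.19) and WNT10B 6.62 ± 0.09 in MSC and 6.53 ± 0.30 in MA (adjusted p = 0.65).

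Of 41 FGF, PDGF and VEGF ligands and receptors 10 rose and 11 fell (19 up and 8 down with reference gene scaling). VEGFC (2.61, SE 0.18) and VEGFD (2.36, SE 0.17) rose and VEGFA fell (-1.18, SE 0.18). PDGFD rose (3.00, SE 0.17), and PDGFA (-1.27, SE 0.20) and PDGFC (-2.21, SE 0.21) fell. FGF7 rose (1.95, SE 0.19) and FGF2 fell (-2.69, SE 0.30). NRG1, a ligand of the ERBB receptors, was at 11.92, 12.24, 11.73, 11.92 and 11.66 on the MSC arrays and at 5.45, 5.83, 5.84, 5.76 and 6.19 on the MA arrays, so all MA arrays lay under the background limit. EGFR itself was 9.15 ± 0.05 in MSC and 8.81 ± 0.22 in MA (adjusted p = 0.058), and its inhibitor ERRFI1 rose (4.36, SE 0.13).

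Cell cycle genes fell, by more in the median of the mitotic list than in that of the replication list. Only 21 of the 53 mitotic and 14 of the 45 replication genes were measured in both groups. Both medians, and the gap between them, therefore depend on background. Of 53 mitotic genes 50 fell and 0 rose (median -1.86). Of 45 genes of DNA replication and nucleotide supply 37 fell and 0 rose (median -0.80, -0.59 with reference gene scaling). PLK1, the polo-like kinase of mitosis, was at 13.28, 13.32, 13.32, 13.05 and 13.49 on the MSC arrays and at 10.36, 10.41, 10.59, 10.49 and 10.51 on the MA arrays, a 7.06-fold fall without overlap. The kinesin KIF23 was at 11.35, 11.30, 11.02, 11.16 and 11.28 on the MSC arrays and at 8.49, 8.43, 8.37, 8.43 and 8.22 on the MA arrays. CCNB1 (-2.59, SE 0.14), CCNB2 (-2.61, SE 0.15), TOP2A (-2.61, SE 0.25), FOXM1 (-2.93, SE 0.17) and MKI67 (-2.30, SE 0.22) fell by like amounts. In replication UHRF1 (-2.46, SE 0.19), GINS1 (-1.80, SE 0.10) and CDC6 (-1.66, SE 0.17) fell most, MCM2 (-0.79, SE 0.19, adjusted p = 0.0027) and PCNA (-0.75, SE 0.10) by less, and FEN1 was 8.63 ± 0.20 in MSC and 8.82 ± 0.40 in MA (adjusted p = 0.4).

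Promoters of these groups hold known cell cycle elements, and a few are shown because their genes moved together, those of the largest falls with TTTGAA or the E2F letters in the stretch printed. The cell cycle homology region, TTTGAA on either strand, was in 31 of 42 RefSeq promoters of mitotic genes that fell (73.8%), against 1712 of 14250 promoters of tested genes. The CCAAT box, CCAAT on either strand, was in 31 of them (73.8%), against 36.4%. The E2F element, TTTCCCGC on either strand, was in 1 of them (2.38%) and in 8 of 31 promoters of replication genes that fell (25.8%), against 2.22%, and TTTGAA was in 1 of the latter (3.23%). The searched window ran from 250 bases before to 50 after the annotated start, and none of these motifs contains another. Below are the 120 bases that end just before the start (RefSeq, GRCh38.p14), 5′ to 3′ on the gene's strand, with TTTGAA and the CCAAT box in capitals for the mitotic genes:
KIF23 (chr15:69414229-69414348, plus strand): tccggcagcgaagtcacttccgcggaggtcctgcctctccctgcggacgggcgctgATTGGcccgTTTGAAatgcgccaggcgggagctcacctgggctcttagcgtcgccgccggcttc
PLK1 (chr16:23678769-23678888, plus strand): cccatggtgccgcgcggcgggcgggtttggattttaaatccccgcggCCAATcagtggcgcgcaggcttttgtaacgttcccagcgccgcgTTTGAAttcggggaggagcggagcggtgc
KIF18A (chr11:28108157-28108276, minus strand): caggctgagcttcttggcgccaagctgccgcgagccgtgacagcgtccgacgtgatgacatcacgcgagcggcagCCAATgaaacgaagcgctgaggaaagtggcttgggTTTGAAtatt
CCNB2 (chr15:59105026-59105145, plus strand): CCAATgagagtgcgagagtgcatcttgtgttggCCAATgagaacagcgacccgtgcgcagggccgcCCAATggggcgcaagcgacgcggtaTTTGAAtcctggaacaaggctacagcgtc
ECT2 (chr3:172750606-172750725, plus strand): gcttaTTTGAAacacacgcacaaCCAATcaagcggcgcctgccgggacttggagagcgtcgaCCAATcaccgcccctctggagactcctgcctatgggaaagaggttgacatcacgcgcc
and with TTTCCCGC and the CCAAT box in capitals for the replication genes, where the E2F letters read in reverse:
UHRF1 (chr19:4909381-4909500, plus strand): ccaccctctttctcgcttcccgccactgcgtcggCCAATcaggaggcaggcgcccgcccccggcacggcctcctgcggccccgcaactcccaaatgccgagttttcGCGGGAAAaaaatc
RFC3 (chr13:33818029-33818148, plus strand): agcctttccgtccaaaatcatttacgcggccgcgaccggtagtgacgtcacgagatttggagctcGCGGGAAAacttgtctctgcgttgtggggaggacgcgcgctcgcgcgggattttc
GINS2 (chr16:85688955-85689074, minus strand): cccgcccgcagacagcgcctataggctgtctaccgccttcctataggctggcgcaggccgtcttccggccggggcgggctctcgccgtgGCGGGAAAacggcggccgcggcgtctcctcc
KIF18A (-2.67, SE 0.17), ECT2 (-2.52, SE 0.22), RFC3 (-1.40, SE 0.12) and GINS2 (-0.93, SE 0.19) fell. A CCAAT box lies upstream of TTTGAA in 4 of the 5 mitotic stretches shown, and in ECT2 both boxes lie downstream of it. Over the 25 promoters of mitotic genes that fell and hold both in the searched window, a CCAAT box lay upstream of TTTGAA in 24 and only downstream in 1. Most tested genes with these letters did not fall: of 1712 tested genes with TTTGAA in this window 351 fell (20.5%), of 708 with both TTTGAA and a CCAAT box 172 (24.3%) and of 317 with the E2F letters 80 (25.2%), against 18.3% of all 14250 with a promoter. These sets include the genes of both lists. A match is a description of letters and says nothing on which factor binds.

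Regulators of the cycle moved both ways. CCND3, the D cyclin known to rise in fat cell differentiation, was at 10.62, 10.43, 10.15, 10.14 and 9.99 on the MSC arrays and at 12.41, 12.41, 12.43, 12.54 and 12.51 on the MA arrays. CCND2 fell (-0.61, SE 0.12) and CCND1 was 11.67 ± 0.28 in MSC and 11.45 ± 0.10 in MA (adjusted p = 0.41). The inhibitors CDKN1A (1.15, SE 0.20) and CDKN2B (1.05, SE 0.14) and the pocket protein RBL2 (0.76, SE 0.13) rose, RB1 (-0.60, SE 0.13) and RBL1 (-0.71, SE 0.12) fell, and CDKN1B was 10.39 ± 0.18 in MSC and 10.64 ± 0.21 in MA (adjusted p = 0.13). The atypical E2F factors E2F7 (-3.06, SE 0.21) and E2F8 (-2.05, SE 0.21) fell with E2F1 (-0.73, SE 0.16), which was under the background limit in both groups. In this list 7 of 33 rose and 13 fell (11 up and 10 down with reference gene scaling), with a median of -0.16 that becomes 0.06 with reference gene scaling. Of 29 immediate early genes 10 rose and 9 fell. The AP-1 subunits JUN (-1.79, SE 0.14), JUNB (-1.40, SE 0.14) and FOSL1 (-1.39, SE 0.39, adjusted p = 0.0076) fell, while the feedback inhibitors of growth factor signalling DUSP4 (3.45, SE 0.16), DUSP6 (1.38, SE 0.18), SPRY2 (2.47, SE 0.13) and SPRY4 (1.28, SE 0.22) rose.

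**Figure D4:**
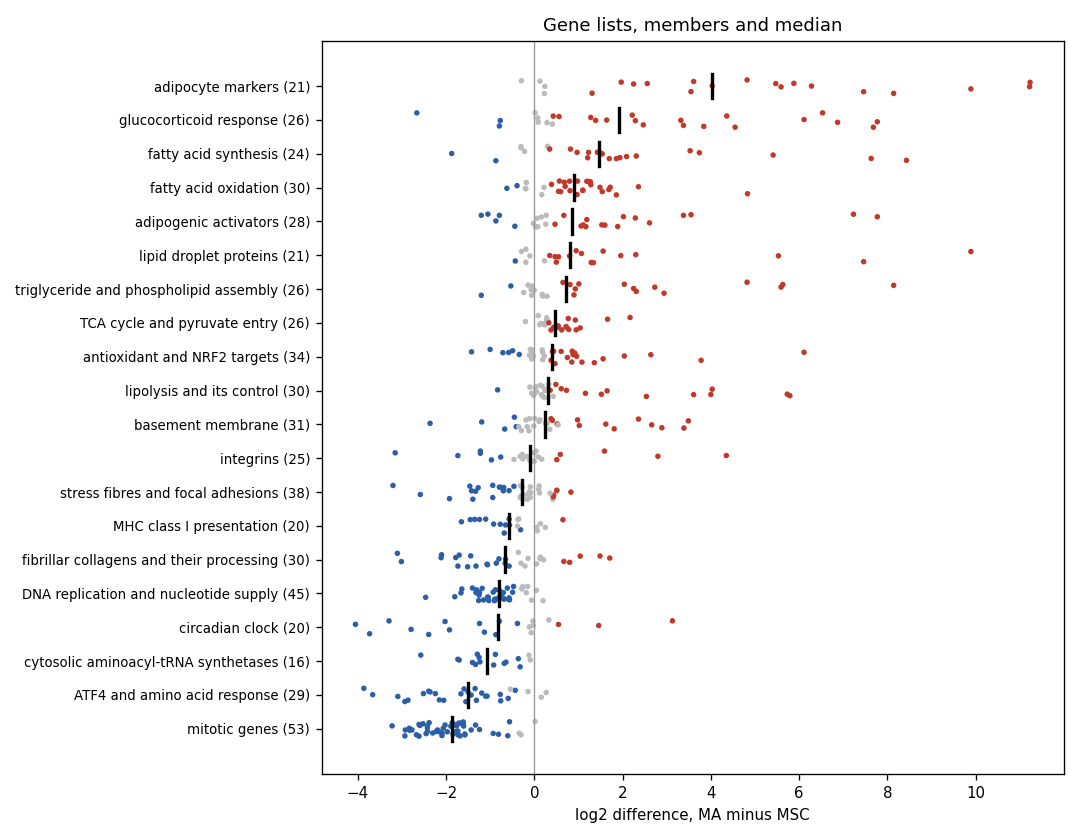
Log2 difference MA minus MSC (x axis) of each measured member of 20 gene lists (rows, with the number of measured members), red for members that rose, blue for members that fell and grey for those that did not pass, with a black bar at the list's median. Rows run from adipocyte markers (median 4.03) at the top to mitotic genes (median -1.86) at the bottom.

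Genes of amino acid supply fell. Of 29 genes controlled by ATF4, the factor of amino acid shortage and the integrated stress response, 25 fell and 0 rose (median -1.50). SLC7A5, which imports leucine, was at 12.01, 12.26, 11.93, 11.83 and 12.07 on the MSC arrays and at 7.92, 8.27, 8.14, 8.13 and 8.32 on the MA arrays. The MSC arrays lay far above the background limit, and the MA mean was under it. ASNS, asparagine synthetase, was at 12.97, 13.02, 13.22, 13.13 and 12.93 on the MSC arrays and at 10.19, 10.12, 10.16, 10.35 and 10.13 on the MA arrays, a 7.28-fold fall. The cystine importer SLC7A11 (-3.66, SE 0.25), the serine synthesis enzymes PHGDH (-2.36, SE 0.16), PSAT1 (-2.51, SE 0.24) and PSPH (-0.76, SE 0.16), the folate enzymes MTHFD2 (-1.50, SE 0.15) and SHMT2 (-1.07, SE 0.13) and ATF4 itself (-0.59, SE 0.09) fell. Among 16 cytosolic aminoacyl-tRNA synthetases 14 fell and 0 rose (median -1.07). WARS1, the tryptophan enzyme, was at 15.27, 15.20, 15.14, 15.19 and 15.26 on the MSC arrays and at 12.80, 12.45, 12.57, 12.82 and 12.57 on the MA arrays. IARS1 (-1.73, SE 0.12) and YARS1 (-1.70, SE 0.12) followed, and of the 2 that did not pass RARS1 was 12.53 ± 0.24 in MSC and 12.44 ± 0.12 in MA (adjusted p = 0.63) and FARSA 11.26 ± 0.07 in MSC and 11.14 ± 0.06 in MA (adjusted p = 0.4).

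Defence against oxidants rose, 18 of 34 genes with 6 falling (median 0.40). GPX3, the secreted glutathione peroxidase, rose by 6.11 (SE 0.38), the extracellular superoxide dismutase SOD3 by 3.78 (SE 0.29), CAT by 2.64 (SE 0.12) and MGST1 by 2.04 (SE 0.14). Of the classical NRF2 targets NQO1 was 12.92 ± 0.22 in MSC and 12.89 ± 0.16 in MA (adjusted p = 0.96) and GCLM fell (-1.42, SE 0.29). The sterol pathway had 10 of 23 members up and 5 down (14 up and 3 down with reference gene scaling, median 0.31). MVD (3.20, SE 0.16), IDI1 (2.93, SE 0.14) and NSDHL (1.69, SE 0.09) rose, SQLE (-1.51, SE 0.18), and CYP51A1 (-0.66, SE 0.14) fell, the master factor SREBF2 fell from 12.66 to 11.66, and DHCR7 was 10.13 ± 0.24 in MSC and 10.22 ± 0.15 in MA (adjusted p = 0.75).

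Genes that present antigen fell for the most part. Of 20 genes of MHC class I presentation 12 fell and 1 rose (2 up and 10 down with reference gene scaling, 2 up without MA array 5, median -0.57), with HLA-C (-1.65, SE 0.13), the immunoproteasome subunits PSMB9 (-1.45, SE 0.16) and PSMB8 (-0.65, SE 0.14, adjusted p = 0.0012) and the peptide transporter TAP1 (-0.92, SE 0.12) lower and HLA-E higher (0.65, SE 0.17, adjusted p = 0.0053), within the limits of closely related HLA genes. Of 29 interferon-stimulated genes 13 fell and 4 rose (9 up and 9 down with reference gene scaling, median -0.28). XAF1 (-1.79, SE 0.15), GBP1 (-1.30, SE 0.16) and IFI6 (-1.03, SE 0.22) fell, and IFITM2 (0.72, SE 0.14) and IFITM3 (0.31, SE 0.10, adjusted p = 0.018) rose. Of 28 chemokines 5 rose and 1 fell (3 up without MA array 1 or 2 or MSC array 3 or 4, 2 down without MA array 5 or MSC array 1 or 2, 3 down without MA array 4, 2 down in the fit of the 10 MA and MSC arrays), a share below that of all genes. CXCL12, measured in both groups, rose (0.56, SE 0.17, adjusted p = 0.015), and CCL2 fell (-0.94, SE 0.16).

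Of 22 bone and cartilage markers 4 rose and 6 fell (7 up and 4 down with reference gene scaling), and their median of -0.18 becomes 0.03 with reference gene scaling. Besides COMP, SOX5 (2.24, SE 0.13) and ALPL (1.82, SE 0.31) rose. Of 20 muscle markers 3 rose and 3 fell (6 up and 2 down with reference gene scaling). Of 23 thermogenic genes 6 rose and 3 fell. PPARGC1A, the coactivator of mitochondrial growth, rose by 2.02 (SE 0.25) and the muscle-type oxidase subunit COX7A1 by 1.03 (SE 0.19). UCP1, which makes brown fat burn fuel, was 3.99 ± 0.09 in MSC and 3.94 ± 0.34 in MA (adjusted p = 0.84), under the background limit in both groups. TNFRSF9, used as a marker of beige fat precursors, fell (-7.73, SE 0.44). HOX genes, which record a cell's position in the body, mostly did not pass: of 23 measured 1 rose and 3 fell (4 up and 0 down with reference gene scaling), with HOXC10 at 0.84 (SE 0.13), HOXC8 9.50 ± 0.27 in MSC and 9.76 ± 0.27 in MA (adjusted p = 0.21) and HOXC9 10.43 ± 0.12 in MSC and 10.56 ± 0.09 in MA (adjusted p = 0.54).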

How the data were processed

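RNA of ASC52 cells was read on single-colour arrays. The authors deposited 1 table of log2 intensities per probe set for all 15 arrays. Per the submitters' processing notes these come from RMA, run in Transcriptome Analysis Console. The sources used here do not give versions or the build of the probe annotation. RMA brings the arrays to a common distribution, so a shift shared by all genes cannot be read. The number of arrays limits the precision.

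Of 24351 probe sets 17709 carried 1 gene symbol in the platform annotation, 2903 were controls and the remaining 3739 had no single symbol. Of 20 genes with several probe sets the one with the highest mean was kept. Groups came from the sample titles. MA was compared with MSC in limma 3.58.1 (R 4.3.3, lmFit and eBayes, two-sided, Benjamini-Hochberg adjustment over 17687 genes), with the spread shared by all 15 arrays. The script was tested on simulated data. Alternatives were other scalings, filters on dim genes, probe sets tested singly, an intensity trend, array weights, the 10 arrays alone, the replicate block and leaving out each array. Reference gene scaling without MSC array 2 was added after seeing the data.

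The comparison, its gene lists and the tests were chosen with earlier results of these data known. Genes are named by these rules: the largest differences without overlap among genes measured in both groups and among genes that crossed the range of the negative controls; the largest rises and falls and the smallest measured differences of each list; members of lists of up to 30 measured genes and of the integrin, nuclear receptor, Wnt and HOX lists; and a fixed set of known adipocyte, matrix and cell cycle genes. Of 439 named genes counted 53, PLK1 and COL6A3 among them, are list members outside these rules, chosen after their values were seen. Some genes named without values, such as TGFBI, THRSP and CIDEA, are not in this count. Promoters come from RefSeq (GRCh38.p14), which held 14250 of the tested genes. Plots used matplotlib 3.10.9 under Python 3.11.15.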

Additional observations from a re-analysis of the deposited data

Results flagged for a closer look

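The 998 groups of 5 values checked are the named genes counted above and the list means, in MSC and in MA. In 78 of them 1 array stood far from the other 4 by Dixon's test. Chance alone gives about 1 in 20 such groups. Values below are log2 intensities, and those in parentheses belong to the nearest other array of the group. MSC array 2 gave 29 of these values, and counts of genes without it are given in the report.

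MSC array 2 was the highest of its group for ACTB at 10.69 (next 9.77), BHLHE41 at 11.05 (next 10.56), CNN1 at 10.90 (next 9.72), CSRP2 at 13.63 (next 13.24), DHCR7 at 10.54 (next 10.12), FZD6 at 11.51 (next 11.06), NQO1 at 13.29 (next 12.90), PNPLA2 at 4.91 (next 4.62), SEL1L3 at 13.49 (next 13.14), STC1 at 10.25 (next 8.94), THRA at 10.93 (next 10.70), TPM1 at 14.48 (next 13.83), the mean of respiratory chain core subunits at 12.34 (next 12.16), the mean of stress fibres and focal adhesions at 11.90 (next 11.66) and the mean of reference genes at 12.30 (next 12.14). MSC array 2 was the lowest of its group for ALPL at 5.63 (next 6.46), AQP7 at 5.39 (next 6.15), C3 at 9.89 (next 11.62), CTSD at 14.86 (next 15.33), FZD4 at 8.87 (next 9.11), IGFBP3 at 15.23 (next 15.67), MGLL at 10.35 (next 10.74), MME at 12.21 (next 12.85), NID1 at 11.92 (next 12.43), NT5E at 13.64 (next 13.95), SERPING1 at 10.15 (next 10.85), SFRP4 at 11.25 (next 12.46), the mean of proteoglycans and matrix glycoproteins at 10.67 (next 10.79) and the mean of thermogenic genes at 6.67 (next 6.76).

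MA array 4 was the highest of its group for CAV1 at 14.18 (next 14.01), PDGFRA at 16.32 (next 16.01), PFKP at 12.88 (next 12.13) and VCAN at 14.10 (next 13.57). MA array 4 was the lowest of its group for ACTB at 8.57 (next 8.89), CAT at 12.22 (next 12.38), MPC2 at 12.62 (next 12.91), NPR1 at 9.81 (next 10.16), OMD at 11.41 (next 11.70) and TIMP1 at 14.25 (next 14.46).

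MA array 5 was the highest of its group for CD55 at 12.75 (next 12.53), IGFBP2 at 11.41 (next 10.99), SLC25A1 at 10.77 (next 10.40) and the mean of antioxidant and NRF2 targets at 11.02 (next 10.94). MA array 5 was the lowest of its group for ACACA at 11.77 (next 12.02), APOL1 at 5.25 (next 5.83), FEN1 at 8.12 (next 8.92) and TUBA1A at 14.02 (next 14.08).

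MSC array 3 was the highest of its group for KLF9 at 9.17 (next 8.94) and the mean of lipolysis and its control at 6.71 (next 6.57). MSC array 3 was the lowest of its group for AGPAT2 at 7.30 (next 7.71), DLAT at 8.83 (next 9.10), ELOVL6 at 9.69 (next 9.78), P4HA2 at 11.91 (next 12.09), PKM at 12.23 (next 12.63) and VCAN at 15.73 (next 15.89).

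MA array 1 was the highest of its group for CPM at 14.06 (next 13.89) and PSAT1 at 10.65 (next 10.29). MA array 1 was the lowest of its group for C6 at 7.74 (next 8.31), CTSF at 5.31 (next 6.27), ID3 at 6.18 (next 6.94) and PRKACA at 10.26 (next 10.48).

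MSC array 4 was the highest of its group for ACACB at 6.60, ADORA1 at 6.82 (next 5.97) and ERG at 8.61 (next 7.78). MSC array 4 was the lowest of its group for CEBPD at 3.96 (next 4.40) and E2F1 at 4.50 (next 5.24).

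MSC array 1 was the highest of its group for E2F7 at 10.55 (next 10.23) and RBL1 at 9.36 (next 9.21). MSC array 1 was the lowest of its group for TALDO1 at 9.12 (next 9.21) and TRIB3 at 7.76 (next 8.07).

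MSC array 5 was the highest of its group for LAMP1 at 10.18 and the mean of peroxisome assembly at 7.92 (next 7.85). MSC array 5 was the lowest of its group for AXIN2 at 4.75 (next 5.37) and UHRF1 at 9.71 (next 10.19).

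MA array 2 was the highest of its group for AQP7 at 11.21 (next 10.89) and CIART at 6.79 (next 6.47). MA array 2 was the lowest of its group for the mean of ATF4 and amino acid response at 9.27 (next 9.30).

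MA array 3 was the lowest of its group for NRCAM at 13.86 (next 14.14).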

How the results depend on the processing

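Over 25 alternative settings, shifting the arrays to the mean of the reference genes was the one that moved counts over all genes by more than 1.5 times: 5196 genes rose and 1980 fell, of those measured in both groups 2122 rose and 1092 fell, and 3631 genes lay above and 1599 below all MSC arrays. Leaving out each array in turn gave 2519 to 2843 rises and 2858 to 3223 falls, 887 to 912 and 901 to 957 with at least a 2-fold difference, 1251 to 1428 and 1537 to 1738 among genes measured in both groups, and 2324 to 2405 genes above and 2708 to 2849 below without overlap, where fewer arrays leave less range to overlap. With the replicate block 2653 genes rose and 3010 fell, and among those measured in both groups 1311 and 1594. Deviations of same-numbered MSC and MA arrays correlated at -0.05 to 0.09, and those of other pairs at -0.08 to 0.08. Whether same-numbered arrays share a culture or a processing batch was not tested. With genes near background left out, fewer genes were tested, and 1959 rose and 2351 fell. Of the 439 named genes counted above 393 passed the test. Of these 4 (ELF3, PLIN3, ITGA6 and CCN2) lost the call in some setting and 0 reversed. Of the named genes that did not pass, 17 gained a call in some setting, 10 of them with reference gene scaling. Not passing the test therefore does not show that a gene was unchanged. Of 120 counts of list members 48 moved by more than 1.5 times in some setting, 33 of them with reference gene scaling; the cause was not tested. Counts without overlap were not run for settings that leave the array values as they are. Signal near the negative controls limits the size of differences for genes under 8.31 in a group.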

Other observations

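Genes of lysosomes and autophagy moved both ways: of 29 measured 6 rose and 10 fell (8 up and 4 down with reference gene scaling), with a median of -0.08 that becomes 0.13 with reference gene scaling. The cathepsins CTSD (-1.28, SE 0.16), CTSB (-0.79, SE 0.15) and CTSS (-0.95, SE 0.16), which degrade protein, and the membrane protein LAMP1 (-0.66, SE 0.10) fell. The protease CTSF (1.02, SE 0.20), the autophagy protein GABARAPL1 (1.08, SE 0.12) and the factor MITF (1.25, SE 0.16) rose. CTSS, CTSF and MITF were under the background limit in both groups. Of 14 aquaporins 2 rose and 1 fell (4 up and 0 down with reference gene scaling), and besides AQP7 the one that rose was AQP3 (2.09, SE 0.19), a water and glycerol channel.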
